A study of Rattus norvegicus with 3 samples.

Results

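Of 14217 genes that the arrays measured, 72 encode ubiquitin-conjugating enzymes (E2 enzymes) or ubiquitin-specific proteases, and their RNA was measured in rat brainstem on arrays labelled for sham treatment, brain injury or hand acupuncture. The members were every gene whose single symbol in the platform's probe table starts with Ube2 (29 genes) or is Usp followed by a digit (43 genes), so they were chosen by name and not by any measured value. The name rule also takes in Usp6nl, which encodes an activator of Rab GTPases and is no protease, and Ube2v2, whose product lacks the catalytic cysteine of an E2 enzyme. It takes in Usp39 as well, which is taken to lack protease activity. Each gene is represented by the probe set with the highest mean signal over the 3 arrays among the probe sets with exactly 1 symbol.

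The treatment labels are Sham, TBI, read as traumatic brain injury, and Hand Acu, read as hand acupuncture and called acupuncture here. Each has 1 Affymetrix array of brainstem frozen 1 h after modelling. The design text gives samples of 5 animals that were mixed, read here as 1 pool of RNA per group, and neither strain, age, sex nor injury method is given in the labels, nor whether rats under acupuncture had been injured too. With 1 array per group there was no replicate, no test was run, and a difference has no error of its own. In RNA from whole tissue, fewer cells of a type and less RNA per cell cannot be told apart.

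Ubiquitin is a small protein that cells attach to other proteins in a relay: an E1 enzyme activates it, an E2 enzyme carries it, and an E3 ligase directs it to a substrate. Chains of ubiquitin send proteins to the proteasome, while other chain types and single ubiquitins steer DNA repair, signalling, histone function and membrane traffic. Ubiquitin-specific proteases are cysteine proteases that remove ubiquitin or trim the chains. In neurons this balance sets the turnover of synaptic receptors and of damaged proteins.

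Values are log2 signals of Affymetrix's MAS5 method, and differences are differences of 2 log2 signals. Where 3 signals of a gene stand in a row, they follow the order sham, TBI, acupuncture. Signals near background are erratic, so genes were described where their mean log2 signal over the arrays was at least 7.44, the median of all probe sets that are not controls. Of the 72 members 63 lay above this floor, 24 of the 29 Ube2 genes and 39 of the 43 Usp genes, against 9241 of all 14217 genes. The spread of differences narrows with signal: the SD of TBI minus sham over genes was 0.31 in the fourth decile of mean signal and 0.13 in the tenth. Of the 63 members, 82.5% were in deciles 7 to 10, against 61.5% of all genes above the floor.

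Neuronal, astrocyte and myelin markers were present (Snap25 had a log2 signal of 13.84 on the sham array, Gfap 12.38 and Mbp 14.04). For TBI minus sham the neuronal markers ranged from −0.31 (Rbfox3) to 0.10 (Nefl) and the astrocyte markers from −0.037 (Slc1a3) to 0.30 (Gfap). The myelin markers Mbp and Mog differed by 0.074 and 0.0021. Of the microglial markers above the floor C1qb differed by 0.27 and Aif1 by −0.11. Of 8 markers of brainstem neurons fixed for this check 5 had a probe set of their own, and Chat, Th and Hoxa5 were above the floor while Slc6a5 and Slc6a2 were not. The summed linear signal of these 5 was 978 (sham), 1319 (TBI) and 1186 (acupuncture), and Hoxa5, which marks the hindbrain and cord, was 1.22 higher in log2 units for TBI minus sham. Its sham signal of 7.35 lay below the floor, while those for TBI and acupuncture were 8.57 and 8.34. Chat and Th differed by 0.25 and 0.16 for TBI minus sham. Of the 2 endothelial markers Cldn5 differed by −0.44 for TBI minus sham and Pecam1 by −0.046. Both red cell markers were higher in that comparison, Hbb by 0.33 and Alas2 by 0.32. The 2 forebrain markers went opposite ways, Neurod2 at −0.56 and Ppp1r1b at 0.60. All 4 markers of cerebellum were above the floor and lower on the TBI array, with summed linear signals of 9203 (sham), 6033 (TBI) and 5518 (acupuncture). RNA integrity was read from the beta-actin and Gapdh controls, as signal at the 3' end over that at the 5' end. For beta-actin this ratio came to 5.58, 6.37 and 6.69 in the same order. For Gapdh it came to 1.2497, 1.2034 and 1.2797, so the controls went opposite ways from sham to TBI. The part of the markers and of RNA integrity in the differences of the members was not tested.

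No member above the floor was 1.5-fold apart between any pair of arrays. Over all genes above the floor 1.55% were 1.5-fold apart for TBI minus sham, 1.21% for acupuncture minus TBI and 1.89% for acupuncture minus sham, so a count of 0 of 63 is near the background. With a lower limit of 0.32 on the log2 difference, 5 of 63 members were apart for TBI minus sham (10.1% of all genes), 0 of 63 for acupuncture minus TBI (8.16% of all genes) and 4 of 63 for acupuncture minus sham (11.0% of all genes). The members' median absolute difference was 0.092, 0.076 and 0.084 in that order, and that of all genes above the floor 0.11, 0.096 and 0.11. The members lie at higher signals than all genes, where the spread is smaller.

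**Figure D1:**
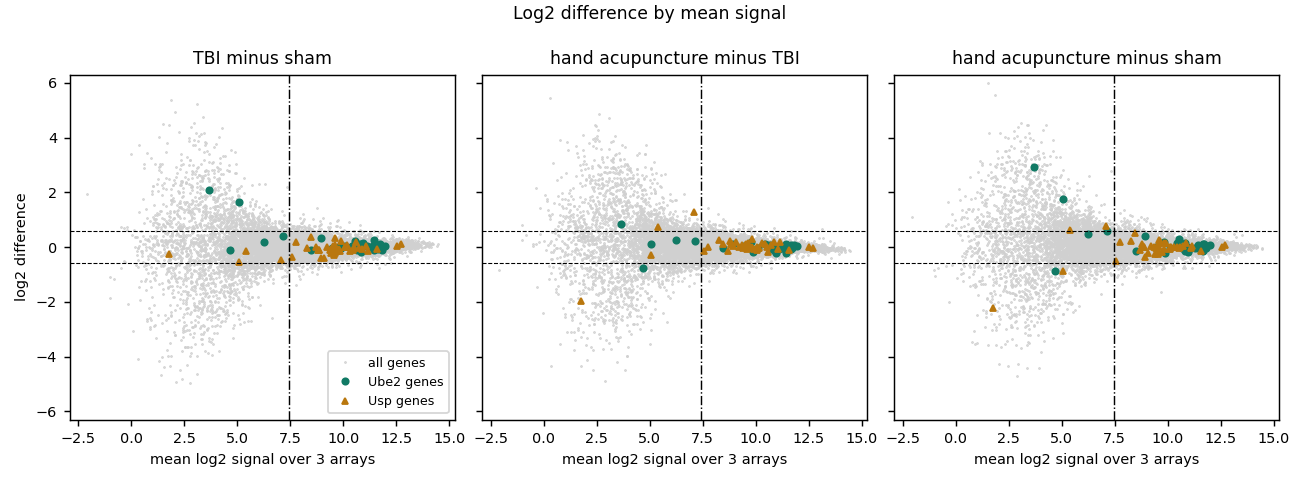
Log2 difference (vertical axis) against mean log2 signal over the 3 arrays (horizontal axis) for all 14217 genes (grey), Ube2 genes (circles) and Usp genes (triangles), 1 panel per comparison. The vertical line is the floor of 7.44 and the dashed lines mark 1.5-fold. All 63 members to the right of the floor lie between the dashed lines, and those beyond them are among the 9 members below the floor.

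Injury against sham was asked first: which of these enzymes differ in the brainstem 1 h after modelling. The Ube2 genes lay slightly to the higher side on the TBI array and the Usp genes slightly to the lower side. Of 24 Ube2 genes 16 were higher, with a median log2 difference of 0.028. Of 39 Usp genes 25 were lower, with a median of −0.052. Over all genes above the floor 51.0% were higher, 49.0% were lower and the median was 0.0043. These shifts are small beside the differences of single genes, and the difference between the families was not tested.

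**Figure D2:**
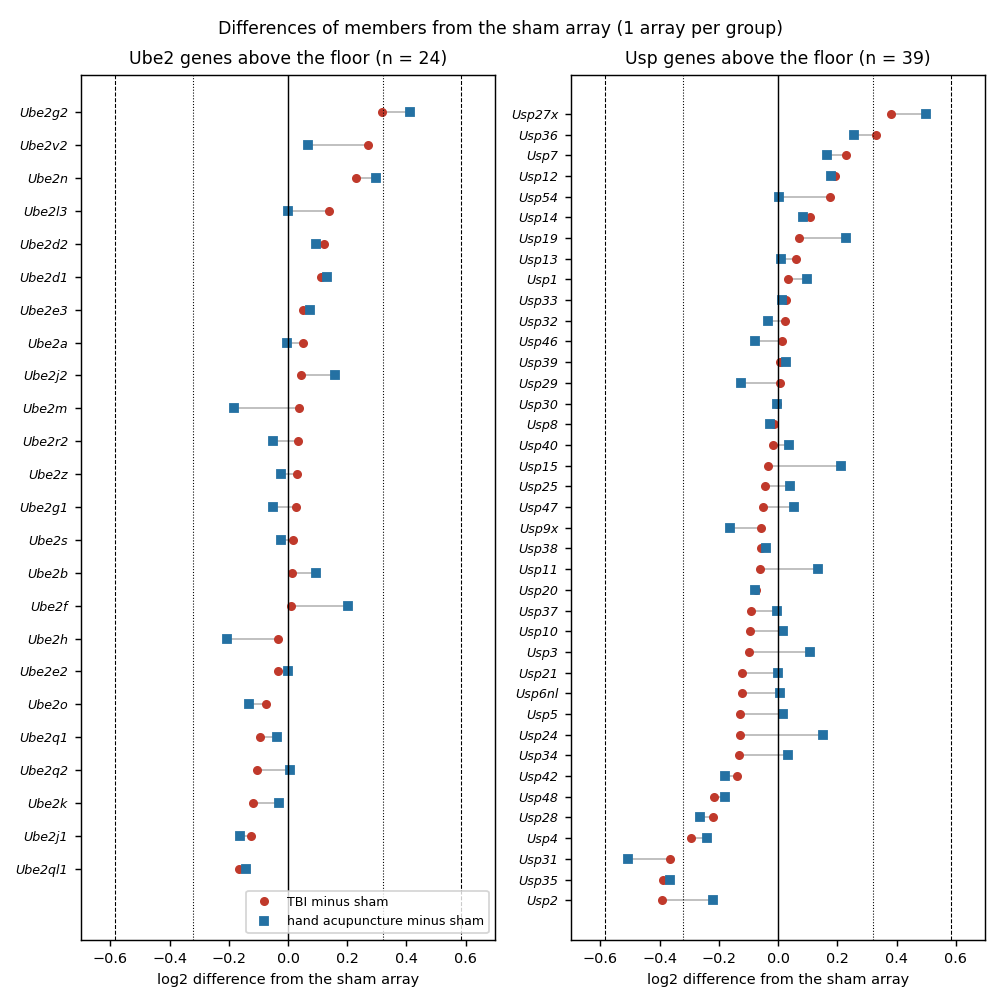
Log2 difference from the sham array (horizontal axis) for each of the 24 Ube2 genes (left) and 39 Usp genes (right) above the floor, with circles for TBI minus sham and squares for acupuncture minus sham. Dotted lines mark a log2 difference of 0.32 and dashed lines 1.5-fold. Both differences subtract the same sham array, and 5 circles and 4 squares lie at or beyond the dotted lines.

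The lowest member on the TBI array relative to sham was Usp2, which trims ubiquitin from clock proteins and whose own RNA follows the daily rhythm in many tissues. Its log2 signal was 9.28 (sham), 8.89 (TBI) and 9.06 (acupuncture), a difference of −0.39 for TBI minus sham (1.31-fold lower). The SD of that difference over genes of the same signal decile was 0.20. Usp35, a protease linked to mitochondria, had signals of 9.18, 8.79 and 8.81 in the same order, so the sham array stood above both others. Usp31 had 7.86, 7.49 and 7.35, with differences of −0.36 for TBI minus sham and −0.51 for acupuncture minus sham. Its mean of 7.57 is the closest to the floor of all members above it, and the SD in its signal decile was 0.31. Next in order were Usp4 at −0.30 and Usp28 and Usp48 at −0.22 each. A further probe set of Usp48 above the floor went the other way, at 0.082.

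Usp27x, an X-linked relative of the histone deubiquitinase Usp22, was the member with the highest difference for TBI minus sham. Its log2 signal was 8.16 (sham), 8.54 (TBI) and 8.66 (acupuncture), 1.30-fold higher for TBI minus sham and 1.41-fold for acupuncture minus sham. Usp36, a nucleolar protease, had signals of 9.40, 9.73 and 9.66. In both genes the sham array was the lowest, and for Usp27x it was at least 0.32 below both others, as in 2.49% of all genes above the floor. Usp35 and Usp31 showed the reverse, with the sham array at least 0.32 above both others, as in 1.99% of all genes. No member had the TBI array above both others by that much (1.09% of all genes) or below them (1.29%), nor the acupuncture array above (1.42%) or below (1.75%).

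**Figure D3:**
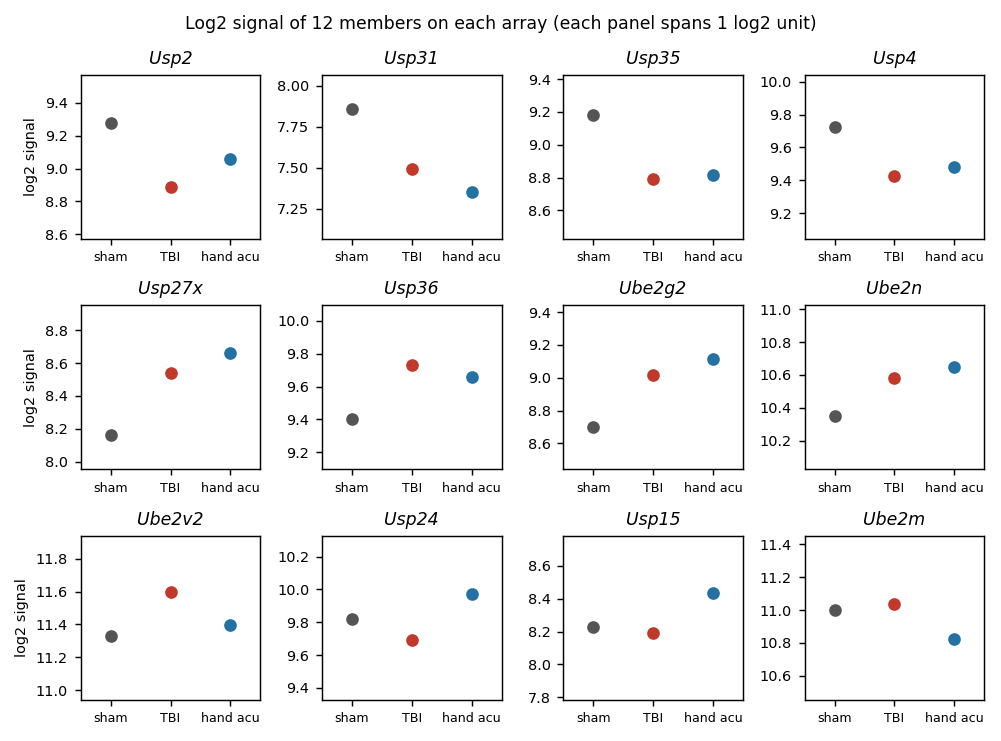
Log2 signal on each array (vertical axis, 1 log2 unit per panel) for 12 members, with 1 point per array of pooled RNA. Usp2, Usp31, Usp35 and Usp4 have their highest point on the sham array, Usp27x, Usp36, Ube2g2, Ube2n and Ube2v2 their lowest, and on the acupuncture array Usp24 and Usp15 have their highest point and Ube2m its lowest.

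By role, the E2 enzymes that start chains for many E3 ligases differed little. Ube2d2 had log2 signals of 11.63 (sham), 11.75 (TBI) and 11.72 (acupuncture), and Ube2d1 had 10.72, 10.83 and 10.85. Ube2e3 and Ube2e2, close relatives of these, differed by 0.052 and −0.035 for TBI minus sham. By their brightest probe sets all 4 measured genes of this list were higher on the acupuncture array than on the sham array, by 0.00026 to 0.13. Over all genes 51.0% were higher in that comparison. Further probe sets above the floor had −0.19 for Ube2e3, 0.29 and −0.038 for Ube2d2 and 0.17 for Ube2d1. A further Ube2d gene, Ube2d2b, lay below the floor.

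Ube2n and its inactive partner Ube2v2 form the E2 pair that builds the ubiquitin chains used in inflammatory signalling and DNA repair. Ube2n had log2 signals of 10.35, 10.58 and 10.65, and Ube2v2 had 11.33, 11.60 and 11.39. By these probe sets both were lowest on the sham array, with TBI minus sham at 0.23 and 0.27. For acupuncture minus TBI Ube2v2 differed by −0.20 and Ube2n by 0.070. A second Ube2n probe set above the floor had 8.28, 8.42 and 8.15. It was lowest on the acupuncture array and differed by −0.27 for acupuncture minus TBI, so there the direction of Ube2n depends on the probe set. The SD over genes of like signal was 0.15 in the ninth decile, which holds Ube2n, and 0.13 in the tenth, which holds Ube2v2.

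Of 5 E2 genes of endoplasmic reticulum-associated degradation, the route that removes misfolded secretory proteins, 3 were higher and 2 lower for TBI minus sham. Ube2g2, which works with the ligases of that route, was the E2 gene with the largest difference: its log2 signal was 8.70 (sham), 9.02 (TBI) and 9.11 (acupuncture), 1.33-fold higher for acupuncture minus sham. Its other probe set lay below the floor at 6.59, 6.26 and 5.77 and went the opposite way, and with the mean of both probe sets the difference was −0.21. Ube2j1, an E2 anchored in the reticulum membrane, had 8.57, 8.45 and 8.41, and its relative Ube2j2 had 10.35, 10.40 and 10.51. Ube2k, which builds chains that target proteins to the proteasome, had 11.86, 11.74 and 11.83, and Ube2g1 had 11.12, 11.15 and 11.07.

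Among E2 genes of the cell cycle and DNA repair, Ube2a and Ube2b, which encode near-identical enzymes that mark histone H2B and the replication clamp, differed by 0.051 and 0.014 for TBI minus sham. Ube2s, which lengthens chains for the anaphase-promoting complex, differed by 0.015. The mitotic E2 gene Ube2c and the Fanconi pathway gene Ube2t were below the floor. Of the E2 enzymes for other modifiers, Ube2m and Ube2f both load NEDD8, a ubiquitin-like protein that activates cullin ligases. Ube2m had log2 signals of 11.002, 11.04 and 10.82 and Ube2f had 9.73, 9.74 and 9.93. These are the lowest and the highest differences of any Ube2 gene for acupuncture minus TBI, at −0.22 and 0.19, so the NEDD8 enzymes went opposite ways.

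The other 8 E2 genes above the floor had a median of −0.054 for TBI minus sham. Ube2l3, a partner of parkin and of HECT ligases, had log2 signals of 10.86 (sham), 10.999 (TBI) and 10.86 (acupuncture). By its brightest probe set Ube2ql1 was lowest of the Ube2 genes on the TBI array relative to sham, with 10.92, 10.76 and 10.78. Ube2h by its brightest was lowest on the acupuncture array, with 9.96, 9.93 and 9.75. For TBI minus sham a further probe set above the floor went the other way in Ube2l3 (−0.15), Ube2ql1 (0.18), Ube2h (0.32) and Ube2z (−0.21). That of Ube2q2 kept the direction (−0.033). Ube2o, a large enzyme that acts as E2 and E3 at once and clears proteins in maturing red cells, had 11.72, 11.64 and 11.59. Ube2q2 and Ube2q1 differed by −0.11 and −0.095 for TBI minus sham, while Ube2r2, an E2 of cullin ligases, and Ube2z, which takes ubiquitin from the E1 enzyme Uba6, differed by 0.035 and 0.030.

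Of the proteases, those of histones and DNA repair included 6 genes above the floor, 3 higher and 3 lower on the TBI array by their brightest probe sets. Beside Usp27x, Usp7, which stabilises the p53 regulator Mdm2, had log2 signals of 9.77, 9.996 and 9.93. Usp48 had 9.73, 9.52 and 9.55. Usp3, a deubiquitinase of histone H2A, had 8.79, 8.70 and 8.90, and Usp21, which also acts on H2A, had 8.90, 8.78 and 8.90, so both were lowest on the TBI array. Usp1, which deubiquitinates the replication clamp, had 9.47, 9.51 and 9.57. For TBI minus sham, further probe sets above the floor went the other way in Usp1 (−0.18), Usp7 (−0.35 and −0.68) and Usp48 (0.082).

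Usp14, the protease that docks on the proteasome and trims chains there, had log2 signals of 12.63 (sham), 12.74 (TBI) and 12.72 (acupuncture). Usp5, which breaks up free ubiquitin chains, had 10.34, 10.21 and 10.35, the TBI array being the lowest. Its paralogue Usp13 had 10.14, 10.20 and 10.15.

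The Usp genes listed for endosomes and membrane traffic had a median of −0.076 for TBI minus sham over 7 genes. Of these 5 were lower, among them Usp2 and Usp6nl, which encodes no protease. Over all genes 49.0% were lower and the median was 0.0043. Usp8, which sorts receptors on endosomes, had log2 signals of 10.53, 10.51 and 10.501, and Usp33, a partner of Robo receptors in axon guidance, had 12.52, 12.55 and 12.53, so the arrays were close together in both genes. Usp20, Usp10 and Usp6nl differed by −0.076, −0.096 and −0.12 for TBI minus sham, and Usp32 by 0.022. Usp30, which sits on the outer mitochondrial membrane and opposes parkin, had 10.08 on every array, and the endoplasmic reticulum protease Usp19 had 9.52, 9.59 and 9.75. Usp25 differed by −0.043 for TBI minus sham.

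By their brightest probe sets the paralogues Usp4, Usp11 and Usp15 all had their lowest signal on the TBI array, as did 31.7% of all genes above the floor. Both differences taken from the TBI array rest on that 1 array. Usp4 had log2 signals of 9.72, 9.43 and 9.48. A further Usp4 probe set above the floor, with 8.90, 8.69 and 8.62, was lowest on the acupuncture array. Usp11 had 10.84, 10.78 and 10.97, and Usp15 had 8.23, 8.19 and 8.44. Only Usp4 of these lay below its sham value on the acupuncture array. Among the large proteases, Usp24 had 9.82, 9.69 and 9.97, and its 0.28 was the highest difference of any member for acupuncture minus TBI. Usp34, which acts on the Wnt pathway scaffold axin, had 11.18, 11.05 and 11.21. Usp47 had 9.52, 9.47 and 9.58, and Usp9x had 11.66, 11.60 and 11.50. By the brightest probe sets Usp9x alone of the 4 was lower on the acupuncture array than on the TBI array. Further probe sets above the floor had 0.095 and −0.046 for Usp9x and −0.21 for Usp47, so the direction of both depends on the probe set. Those of Usp24 and Usp34 kept their direction, at 0.068 and 0.058.

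Usp12 and Usp46 share the activating partner Wdr48, and Usp46 is known for its effect on glutamate receptors in neurons. Usp12 had log2 signals of 7.63, 7.82 and 7.80 and Usp46 had 10.11, 10.12 and 10.03. Wdr48 itself had 8.23, 8.49 and 8.40. Of the other Usp genes above the floor, Usp54 had 10.54, 10.71 and 10.54, with the TBI array the highest. Its −0.17 was the lowest Usp difference for acupuncture minus TBI. Usp28, which stabilises Myc, had 9.55, 9.33 and 9.29. Usp42 had 9.82, 9.68 and 9.64, and Usp29, an imprinted gene, had 8.72, 8.73 and 8.60, so both were lowest on the acupuncture array. Usp37, Usp38 and Usp40 differed by −0.092, −0.057 and −0.018 for TBI minus sham, and the splicing factor gene Usp39 by 0.0080.

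The acupuncture array was next set against the TBI array, a comparison of single pools that may differ in injury as well as in acupuncture. Ube2 genes were split evenly, with 12 higher and 12 lower and a median log2 difference of −0.0049. Of 39 Usp genes 23 were higher, with a median of 0.022, where 49.3% of all genes were higher and the median was −0.0024. The highest after Usp24 were Usp15 at 0.25, Usp3 at 0.20, Usp11 at 0.20, Ube2f at 0.19, Usp2 at 0.17, Usp34 at 0.17 and Usp19 at 0.16. The lowest after Ube2m were Ube2v2 at −0.20, Usp54 at −0.17, Ube2h at −0.17, Usp31 at −0.14, Ube2l3 at −0.14, Usp29 at −0.13 and Usp9x at −0.11. Of these, Ube2l3 and Usp9x each had a further probe set above the floor that went the other way, at 0.057 and 0.095. Another of Usp9x and that of Ube2h kept the direction. Of the 39 Usp genes 19 had their lowest signal on the TBI array (48.7%, against 31.7% of all genes above the floor), and of the 24 Ube2 genes 5 did (20.8%).

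In acupuncture against sham the medians were −0.0023 for Ube2 genes and 0.010 for Usp genes, where all genes had 0.0037. Usp27x and Ube2g2 were higher by at least 0.32, and Usp31 and Usp35 lower. Behind these, Ube2n was 0.30 higher, Usp36 0.26, Usp19 0.23, Usp15 0.21, Ube2f 0.20 and Usp12 0.18, while Usp28 differed by −0.26, Usp4 by −0.24, Usp2 by −0.22, Ube2h by −0.21, Usp42 by −0.18 and Ube2m and Usp48 by −0.18 each. Usp19, Usp4, Usp2 and Usp48 kept their direction in a further probe set above the floor. Ube2n and Ube2h turned in theirs, to −0.13 and 0.21. The comparison shares its sham array with TBI minus sham and its acupuncture array with acupuncture minus TBI.

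Many members are measured by more than 1 probe set: the 72 genes had 135, of which 97 were above the floor, and 27 genes had at least 2 above it. For TBI minus sham 12 of their 34 further probe sets went the way of the brightest (35.3%), against 56.6% over all 2073 genes with several probe sets. For acupuncture minus TBI the share was 55.9%, against 53.5%, and for acupuncture minus sham 58.8%, against 55.4%. Usp7 is the widest case, with 0.23 for TBI minus sham in its brightest probe set and −0.35 and −0.68 in others. Usp46 had 0.014, −0.15 and −0.47, and Ube2b had 0.014, −0.021 and −0.49. For Usp7, Usp46 and Ube2b the direction depends on the probe set, as it does for all of the 27 genes other than the 8 named below. All probe sets above the floor agreed in 14 of the 27 for acupuncture minus TBI and in 15 for acupuncture minus sham. These are 51.9% and 55.6%, against 47.4% and 50.2% of all such genes. Usp38 was lower in both of its probe sets, at −0.057 and −0.65.

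**Figure D4:**
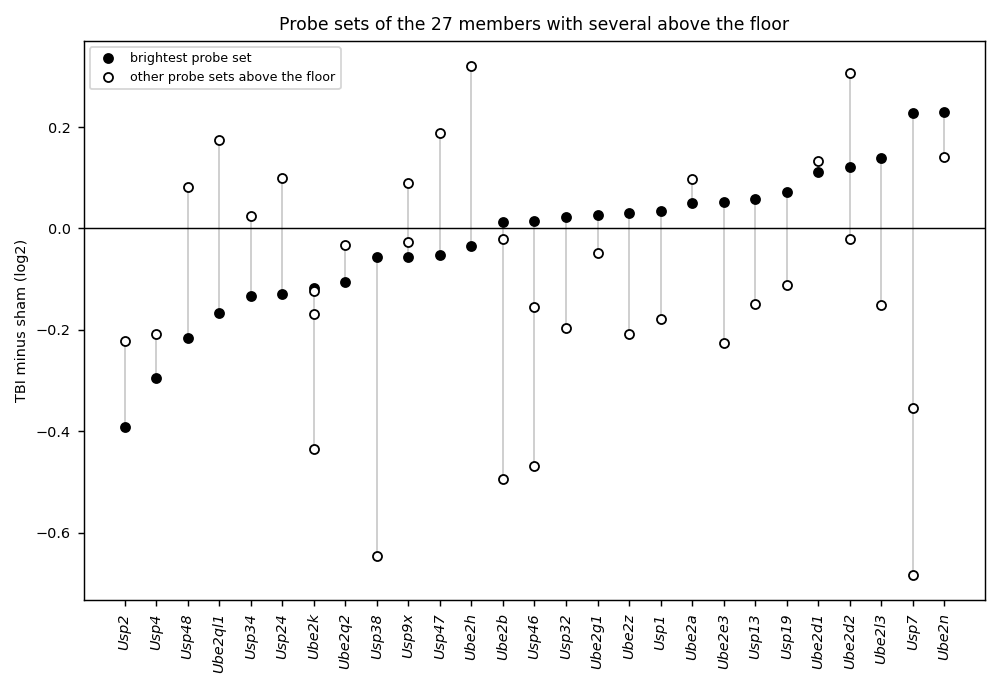
TBI minus sham in log2 units (vertical axis) for each probe set above the floor of the 27 members with at least 2, ordered by the brightest probe set (filled) with the others open. In 8 genes all probe sets lie on the same side of 0, and Usp7 spans from −0.68 to 0.23.

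In 8 of the 27 genes all probe sets above the floor went the same way for TBI minus sham (29.6%, against 51.6% of all such genes): Ube2a, Ube2d1 and Ube2n were higher, and Ube2k, Ube2q2, Usp2, Usp38 and Usp4 lower. Usp2 had −0.39 and −0.22 in its probe sets 1387703_a_at and 1375549_at, and Usp4 had −0.30 and −0.21 in 1389016_at and 1394536_at. The 4 probe sets of Ube2k had −0.12, −0.12, −0.44 and −0.17. Those of Ube2n had 0.23 and 0.14, and those of Ube2d1 had 0.11 and 0.13. In these 5 genes every probe set above the floor differed by at least 0.1 in the same direction, a limit set after the values were seen. Their promoters are shown because they are those of the 8 genes that passed this limit for TBI minus sham. For acupuncture minus TBI the probe sets of Usp4, Ube2k and Ube2n differed in direction, as did those of Ube2n for acupuncture minus sham. The 250 bases before the annotated start are taken from RefSeq on GRCr8, 5′ to 3′ on the gene's strand, with matches to the motifs named below in capitals.
Usp2 (chr8:53310620-53310869, plus strand): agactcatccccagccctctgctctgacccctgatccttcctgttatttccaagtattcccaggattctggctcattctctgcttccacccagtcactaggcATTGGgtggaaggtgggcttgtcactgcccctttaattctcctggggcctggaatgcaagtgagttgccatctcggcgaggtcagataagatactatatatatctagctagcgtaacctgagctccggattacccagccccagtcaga
Usp4 (chr8:117914405-117914654, plus strand): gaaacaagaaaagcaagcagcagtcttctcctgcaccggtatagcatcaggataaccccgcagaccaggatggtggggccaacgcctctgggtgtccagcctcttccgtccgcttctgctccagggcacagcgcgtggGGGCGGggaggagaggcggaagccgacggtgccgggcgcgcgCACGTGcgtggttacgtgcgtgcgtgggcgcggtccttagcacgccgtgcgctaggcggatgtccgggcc
Ube2k (chr14:43072215-43072464, minus strand): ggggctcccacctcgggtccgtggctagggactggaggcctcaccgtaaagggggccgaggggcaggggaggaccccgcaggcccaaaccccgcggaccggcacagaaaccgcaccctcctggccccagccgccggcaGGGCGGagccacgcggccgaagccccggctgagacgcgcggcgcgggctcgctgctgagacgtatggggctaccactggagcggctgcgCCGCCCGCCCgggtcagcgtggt
Ube2n (chr7:32040959-32041208, plus strand): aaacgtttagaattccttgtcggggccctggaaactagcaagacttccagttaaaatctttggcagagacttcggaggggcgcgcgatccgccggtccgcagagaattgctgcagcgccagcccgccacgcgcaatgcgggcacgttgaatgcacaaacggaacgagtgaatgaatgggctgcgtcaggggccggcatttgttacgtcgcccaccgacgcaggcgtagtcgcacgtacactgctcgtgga
Ube2d1 (chr20:17308209-17308458, plus strand): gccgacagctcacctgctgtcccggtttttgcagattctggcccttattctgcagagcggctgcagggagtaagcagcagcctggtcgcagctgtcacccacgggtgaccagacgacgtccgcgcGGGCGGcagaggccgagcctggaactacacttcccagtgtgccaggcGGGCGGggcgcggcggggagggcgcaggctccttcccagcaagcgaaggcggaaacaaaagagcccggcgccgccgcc

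Both strands were searched for the E-box CACGTG, the GC box GGGCGG, the CCAAT box CCAAT, the TATA box TATAAA, the cAMP response element TGACGTCA and the glucocorticoid response half-site AGAACA. Usp4 held an E-box that begins 70 bases before the start and a GC box 112 bases before it. Usp2, which has the lowest GC content of the 5 at 52.0%, held a CCAAT box on the reverse strand. Ube2k, at 76.0% GC, held 3 GC boxes, of which the last 2 overlap. Ube2d1 held 2 GC boxes and Ube2n no match to these letters in this window.

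Over members, 59 of the 72 matched a promoter entry. GC boxes were in 67.8% of them, against 61.0% of 7670 promoters of genes above the floor and 40.3% of all 18999 promoters of protein-coding genes. The TATA box was in 6.78% (Ube2s, Usp40, Ube2f and Usp54), against 5.95% of promoters of genes above the floor and 12.3% of all. E-boxes were in 6.78% (Usp31, Ube2q1, Usp4 and Usp6nl), against 8.51% and 6.38%. The CCAAT box was in 28.8%, against 35.8% and 35.5%, the half-site in 10.2%, against 10.4% and 14.9%, and the cAMP response element in 0 of 59, against 3.10% and 2.03%. The median GC content was 64.4%, against 60.8% and 54.8%.

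The 9 members below the floor have values that vary too much to order. Usp18, which removes the interferon-induced modifier ISG15, was the protease gene closest to it, with log2 signals of 6.97 (sham), 6.48 (TBI) and 7.76 (acupuncture). Only the acupuncture value exceeded the floor, and the SD of acupuncture minus TBI over genes of its signal decile was 0.30, against its own 1.28. Ube2l6, the E2 enzyme that loads ISG15, had 6.81, 7.20 and 7.41, and Isg15 itself had 7.43, 7.61 and 7.32. Ube2c had 6.01, 6.203 and 6.47, and Ube2t had 3.93, 5.58 and 5.69. Ube2d2b had 1.997, 4.07 and 4.93, Ube2u had 4.98, 4.88 and 4.12, Usp43 had 5.55, 4.99 and 4.68, Usp44 had 2.60, 2.35 and 0.36, and Usp49 had 5.24, 5.11 and 5.84. Ube2d2b and Usp44 belong to the first signal decile, where TBI minus sham had an SD of 1.68 over genes.

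Around the members, 67 other genes of the pathway lay above the floor, and none was 1.5-fold apart in any comparison. For TBI minus sham 44 were higher and 23 lower, with a median of 0.051, where 51.0% of all genes above the floor were higher and their median was 0.0043. By at least 0.32, 1 was higher and 2 lower, where 10.1% of all genes were that far apart. For acupuncture minus TBI 28 were higher and 39 lower (49.3% of all genes were higher), with a median of −0.011, and for acupuncture minus sham 37 were higher and 30 lower (51.0% of all genes were higher), with a median of 0.028. The 4 ubiquitin genes had no probe set with a single symbol and are not analysed here. Of E1 enzymes 3 of 7 were higher for TBI minus sham, with Uba6 at −0.12, Sae1 at −0.14 and Atg7, which activates autophagy modifiers, at −0.086. Of ubiquitin-like modifiers 9 of 10 were higher, against the same 51.0% of all genes, with Sumo3 at 0.13 and Isg15 at 0.18, while Urm1 differed by −0.41. Of E2 genes outside the Ube2 names 5 of 5 were higher, where 51.0% of all genes were, among them Ufc1, the E2 of the modifier Ufm1, at 0.20, Atg3 at 0.17 and Tsg101 at 0.054.

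Of deubiquitinases outside the Usp names 15 of 23 were higher for TBI minus sham, and 51.0% of all genes were. These lists are short, and no list was tested against other genes. Uchl1, an abundant neuronal ubiquitin hydrolase, had log2 signals of 11.35 (sham), 11.57 (TBI) and 11.20 (acupuncture), a difference of −0.37 for acupuncture minus TBI. Otud7b, which acts on the chains of NF-kappaB signalling, had 8.48, 8.53 and 8.90, and Atxn3, the ataxin gene of a spinocerebellar ataxia, had 8.81, 8.79 and 8.502. Of E3 ligases and other partners 12 of 22 were higher, near the 51.0% of all genes. Fzr1, an activator of the anaphase-promoting complex, had 8.59, 8.97 and 9.0002, Eny2, a subunit of the histone deubiquitinase module, had 10.43, 10.36 and 10.07, and the ligase gene Ube3b had 8.996, 8.65 and 8.86. Each pathway gene is given by its brightest probe set alone. Otud7b, Atxn3 and Fzr1 had 3 probe sets each and Eny2 had 2, so their directions may depend on the probe set.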

How the data were processed

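Brainstem RNA of 3 pools was hybridised to 1 Affymetrix array each, and 6 µg of total RNA went into labelling, per the labels' protocols. The submitters' processing notes name MAS5 without a version. The deposited table holds log2 signals. Base and scaling follow from the numbers themselves, since 2 to the power of each value gives a mean of 500.0 on all arrays once 2% is trimmed from each end. Of 31099 probe sets 57 were controls, and 20826 others had 1 symbol in the platform annotation of 2016. Of the 72 members 72 were found by identifier in RefSeq's table of GRCr8. No column of another sample was present.

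Differences were taken between arrays as deposited, and counts of genes past a log2 difference of 0.32 and past 1.5-fold were set beside those over all 9241 genes above the floor. Past 2-fold only members were counted, with 0 of 63 in each comparison. Named were members past 1.5-fold, the 8 highest and 8 lowest members per comparison, the 2 of each role list and the 3 of each pathway list with the largest difference. Other members were named to describe a list. Usp genes in no role list were grouped after the values were seen. The members and lists were chosen with earlier results of these data known. The SD given beside single genes is that over genes of the same decile of mean signal among all 14217 genes. Alternatives tried were median centring, quantile normalization, dropping the floor, raising it to 9.25 (the 75th percentile), adding 50 to the linear signal, averaging a gene's probe sets, and other folds. Python 3.11.15, numpy 2.4.6 and pandas 2.3.3 were used, and the scripts were tested on simulated data. The number of arrays limits the precision.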

Additional observations from a re-analysis of the deposited data

How the results depend on the processing

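With 1 array per group no replicate could be left out. No paired analysis was possible because each group has 1 array. The count of 0 genes past 1.5-fold in each family and comparison held with quantile normalization, median centring, the higher floor and an offset of 50. With no floor it was 2, 2 and 4 Ube2 genes and 0, 3 and 4 Usp genes for TBI minus sham, acupuncture minus TBI and acupuncture minus sham, the added genes being those below the floor. With a gene's probe sets averaged it was 0, 1 and 0 Ube2 genes and 1, 2 and 0 Usp genes. With the limit at a log2 difference of 0.32 it was 0, 0 and 1 Ube2 genes and 5, 0 and 3 Usp genes. The count of Ube2 genes higher on the TBI array ranged from 13 of 23 with the mean of all probe sets to 20 of 29 with no floor, and that of lower Usp genes from 18 of 28 with the higher floor to 29 of 43 with no floor. Every median of a family moved by less than 0.05 in log2 units. Of the 63 members 17, 15 and 12 turned direction with the mean of all probe sets in the 3 comparisons, Ube2g2 among them, and at most 4 turned under quantile normalization or centring. Each array is 1 pool, and the deposited table gives no detection calls, so values near the floor are the least certain.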
